A study of Mus musculus with 2 samples.

Results

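The 10 genes described here, Cry1, Cry2, Per1, Per2, Clock, Arntl, Arntl2, Nr1d2, Bhlhe40 and Csnk1e, belong to the feedback loops of the mammalian circadian clock, and were taken by symbol from the 27998 genes of the count table. All 10 were found in both libraries' gene lists. They were measured by droplet single-cell RNA-seq in the male mouse embryonic stem cell line E14, whose strain is given as C57BL/6, grown on gelatin without feeder cells in ESGRO-2i medium. One culture received Idoxuridine, an iodinated thymidine analogue that dividing cells build into new DNA, and the other received the solvent DMSO, both for 24 h in 2i/LIF. The dose stands as 10 µM in the treatment label and as 10 mM in a protocol field, and the 2 cannot be reconciled from the sources used here. The study is about noise and heterogeneity in circadian periodicity, and a protocol field describes the treatment as a test of a noise enhancer. Each treatment is represented by 1 library, so no difference below has a replicate check, no test between treatments was possible, and every interval covers counting error only.

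The Idoxuridine library held 742 cells and 30454626 unique molecular identifiers (UMIs, 1 per captured transcript end), and the DMSO library held 811 cells and 40818344 UMIs. The median cell had 37425 UMIs with Idoxuridine and 44502 UMIs with DMSO, and 2 cell barcodes occurred in both libraries. All 10 embryonic stem cell markers on the list (Pou5f1, Sox2, Nanog, Esrrb, Klf4, Zfp42, Tfcp2l1, Dppa5a, Utf1 and Tdgf1) were detected, with summed levels of 4815 CPM (UMIs per 1000000 UMIs of the library) with Idoxuridine and 6670 CPM with DMSO. Summed levels of 10 fibroblast markers were 12.9 CPM with Idoxuridine, where Postn was at 0, and 1.54 CPM with DMSO, where Col1a1, Col3a1, Col6a1 and Postn were at 0. Summed markers of primitive endoderm stood at 30.8 CPM with Idoxuridine and 14.4 CPM with DMSO, and of trophectoderm at 247 CPM with Idoxuridine and 152 CPM with DMSO. Mesendoderm markers stood at 42.2 CPM with Idoxuridine and 18.2 CPM with DMSO, and neuroectoderm markers at 207 CPM with Idoxuridine and 132 CPM with DMSO. Tubb3 alone gave 191 CPM of the neuroectoderm sum with Idoxuridine and 127 CPM with DMSO. Krt8 gave 127 CPM of the trophectoderm sum with Idoxuridine and 93.5 CPM with DMSO. By CPM, Sox1 of the neuroectoderm list and Lama1 of the primitive endoderm list were lower with Idoxuridine. Eomes is counted in both the trophectoderm and the mesendoderm sum. The part of these differences in marker sums in the results below was not tested. The median share of UMIs from 6 nuclear-retained RNAs was 0.507% with Idoxuridine and 0.319% with DMSO. No cell type known to lack the clock genes was sampled, so no background share of cells with a UMI from free RNA could be set beside the shares below.

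In the core loop of the clock, CLOCK pairs with BMAL1 (the product of Arntl) or its relative BMAL2 (Arntl2) and activates genes through E-box elements, among them the Per and Cry genes, whose products return to the nucleus and repress the pair. In a second loop the nuclear receptors REV-ERB (Nr1d1, Nr1d2) and ROR compete at shared elements in genes such as Arntl, while DEC1 (Bhlhe40) represses at E-boxes and casein kinase 1 epsilon (Csnk1e) phosphorylates PER proteins and so sets their stability. Mouse embryonic stem cells in the pluripotent state are known to express most of these genes without a running rhythm, which appears as the cells differentiate.

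Promoters from 250 bases before to 50 bases after the annotated start, taken from RefSeq on GRCm38.p6, were found for 8 of the 10 genes, at 15 start sites. Per2 and Bhlhe40 had no entry. The promoters of Cry1, Cry2, Per1 (first start site) and Nr1d2 are printed because they show where words of the activator pair and of the nuclear receptors lie relative to the start. Each is printed 5′ to 3′ on the strand of the gene, with capitals at a match to CACGTG (the E-box), CACGTT (the E′-box) or AGGTCA (the core of the ROR and REV-ERB element) on either strand.
Cry1, chr10:85185005-85185304, minus strand: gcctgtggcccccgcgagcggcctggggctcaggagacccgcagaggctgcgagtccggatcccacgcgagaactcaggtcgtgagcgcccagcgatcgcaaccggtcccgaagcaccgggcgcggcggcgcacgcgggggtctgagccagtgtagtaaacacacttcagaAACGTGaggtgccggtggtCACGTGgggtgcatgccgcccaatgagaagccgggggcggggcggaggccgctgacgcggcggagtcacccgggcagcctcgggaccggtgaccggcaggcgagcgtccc
Cry2, chr2:92434020-92434319, minus strand: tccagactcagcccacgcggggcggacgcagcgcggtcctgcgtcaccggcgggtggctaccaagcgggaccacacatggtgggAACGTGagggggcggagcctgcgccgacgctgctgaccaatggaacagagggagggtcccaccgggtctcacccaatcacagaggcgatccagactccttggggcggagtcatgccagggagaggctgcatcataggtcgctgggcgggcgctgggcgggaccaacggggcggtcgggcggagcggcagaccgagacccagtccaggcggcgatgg
Per1, chr11:69098699-69098998, plus strand: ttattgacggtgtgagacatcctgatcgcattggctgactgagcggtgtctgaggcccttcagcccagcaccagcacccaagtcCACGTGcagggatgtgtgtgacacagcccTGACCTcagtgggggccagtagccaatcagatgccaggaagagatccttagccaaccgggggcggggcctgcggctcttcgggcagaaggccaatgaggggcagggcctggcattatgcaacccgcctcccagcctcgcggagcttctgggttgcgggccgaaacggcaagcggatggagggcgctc
Nr1d2, chr14:18239057-18239356, minus strand: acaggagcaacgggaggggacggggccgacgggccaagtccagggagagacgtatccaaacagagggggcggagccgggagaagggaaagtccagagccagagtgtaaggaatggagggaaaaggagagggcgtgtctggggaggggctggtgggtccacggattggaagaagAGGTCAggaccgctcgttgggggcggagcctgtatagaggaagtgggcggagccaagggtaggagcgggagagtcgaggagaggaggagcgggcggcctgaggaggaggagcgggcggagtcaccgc
The Cry1 promoter held an E-box beginning 60 bases before the start and an E′-box, read on this strand as AACGTG, beginning 79 bases before it. An E-box began 166 bases before the first of 2 Per1 start sites, and the receptor core, read on this strand as TGACCT, 137 bases before it. The only listed word in the Cry2 promoter was an E′-box, read as AACGTG, 166 bases before the start, and in the Nr1d2 promoter a nuclear receptor core 77 bases before it. That core was also present at the third Clock start site, 119 bases before it, and 31 bases after the second Arntl start site. Across the 15 start sites of the members, the E-box was present at 2, the E′-box at 2 and the receptor core at 4. Among 32851 promoters of the same length, the E-box was present in 7.15%, the E′-box in 4.68% and the receptor core in 16.3%. No member's window held a D-box (TTATGTAA or TTACGTAA, in 1.06% of all promoters) or a cAMP element (TGACGTCA, in 1.79%). Each word was searched on both strands, no word contains another, no matches overlapped in these promoters, and a match is a description of letters and not of a bound site.

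Relative to DMSO, the Idoxuridine library held more transcripts of Cry1, Cry2, Bhlhe40, Nr1d2 and Arntl2 by CPM, and no more of Clock or Arntl. Of the 9 members that reach 200 UMIs when the libraries are added, 5 were higher with Idoxuridine by at least 0.5 on the log2 scale with Poisson intervals that did not overlap: Bhlhe40, Arntl2, Cry1, Nr1d2 and Cry2. None was lower by that measure. That is 55.6% higher, against a background of 18.8% higher and 4.2% lower among the 10380 genes that reach 200 UMIs. The members were chosen with earlier results of these data known. Here and below, their comparison with all genes is therefore a description and not an independent test. The median log2 ratio was 0.69 over the 9 members and 0.09 over all 10380 genes. Under edgeR's TMM scaling and under median-of-ratios scaling the log2 ratios of all genes shift by -0.21 and -0.25. The split over all genes, 1947 higher and 436 lower by CPM, was then 1259 higher and 1262 lower under TMM, and 1146 higher and 1551 lower under the median of ratios. Under both scalings Cry2 left the higher group, at 0.48 and 0.44, and the other 4 members stayed in it. With a minimum size of 0.25, Csnk1e joined the higher group to make 6 of 9, where 31.1% of all genes were higher.

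**Figure D1:**
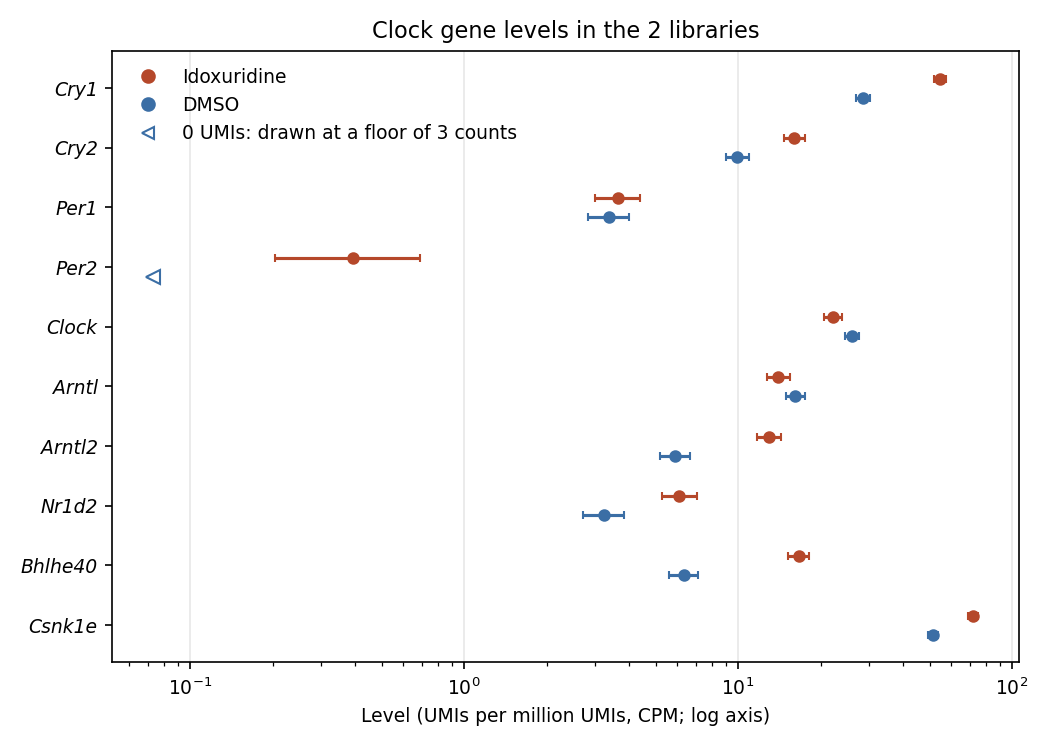
Levels of the 10 clock genes in CPM (log axis) in the Idoxuridine library and the DMSO library, with exact Poisson 95% intervals of counting error as bars; there is 1 library per treatment. Cry1, Cry2, Arntl2, Nr1d2, Bhlhe40 and Csnk1e are higher with Idoxuridine with intervals that do not overlap, Clock is lower, and Per2, with no UMI in the DMSO library, is drawn there as an open triangle at a floor of 3 counts.

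Among the repressors, Cry1, a cryptochrome that blocks CLOCK and BMAL1 directly, was the most abundant. Its level was 54.5 CPM (95% interval 51.9 to 57.2, 1659 UMIs) with Idoxuridine and 28.5 CPM (26.9 to 30.2, 1163 UMIs) with DMSO, a 1.91-fold higher level (log2 ratio 0.94, 0.83 to 1.04). Cry1 lies on chromosome 10 (GRCm38, 85131700 to 85185064, minus strand). Cry2, the second cryptochrome, stood at 16.1 CPM (14.7 to 17.5) with Idoxuridine and 9.95 CPM (9.002 to 10.96) with DMSO, 1.61-fold higher (log2 ratio 0.69, 0.50 to 0.88). The intervals of both cryptochromes were apart. Cry2 (chromosome 2, 92403646 to 92434043, minus strand) overlaps D930015M05Rik on the other strand, and the strand setting of the counting is not given in the sources used here.

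Per1, the period gene whose transcription also answers cAMP and other acute signals, was scarce and nearly level. It stood at 3.64 CPM (2.998 to 4.39, 111 UMIs) with Idoxuridine and 3.38 CPM (2.84 to 3.99, 138 UMIs) with DMSO. Its log2 ratio of 0.11 had an interval of -0.27 to 0.48, so a difference was not detectable at this depth. Per2, the period gene whose loss disrupts rhythms in mice, had 12 UMIs with Idoxuridine, each in a different cell, and 0 UMIs with DMSO. Its level with Idoxuridine was 0.394 CPM (0.204 to 0.688), and the 95% interval of its log2 ratio to DMSO had a lower end of 1.90 and no upper end. The 12 cells are 1.62% (0.84 to 2.81%, exact binomial) of the Idoxuridine cells, and 0 of 811 DMSO cells allows a share of cells with a UMI of up to 0.370% when 3 counts are set against the cells, or 0.454% by the exact binomial interval. Per1 lies on chromosome 11 (69095217 to 69109960, plus strand) and Per2 on chromosome 1 (91415982 to 91459324, minus strand).

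The activators went a different way from the cryptochromes, with Arntl2 apart from the others. Clock, which encodes the basic helix-loop-helix partner of BMAL1, stood at 22.2 CPM (20.6 to 24.0, 677 UMIs) with Idoxuridine and 26.1 CPM (24.6 to 27.7, 1066 UMIs) with DMSO. Its log2 ratio was -0.23 (-0.37 to -0.09), lower with Idoxuridine with separate intervals but short of 0.5. Arntl, which encodes the obligate partner BMAL1, stood at 14.02 CPM (12.7 to 15.4, 427 UMIs) with Idoxuridine and 16.2 CPM (14.98 to 17.5, 661 UMIs) with DMSO. Its intervals overlapped, and its log2 ratio was -0.21 (-0.39 to -0.03). Clock (chromosome 5, 76209868 to 76304792, minus strand) overlaps Gm43658 and Ube2n-ps1 on its own strand, and Arntl (chromosome 7, 113207465 to 113314126, plus strand) overlaps Gm45355 on the other.

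Arntl2, a paralogue of Arntl that can stand in for it in mice when expressed, was 2.20-fold higher with Idoxuridine. It stood at 13.0 CPM (11.8 to 14.3, 396 UMIs) with Idoxuridine and 5.90 CPM (5.18 to 6.70, 241 UMIs) with DMSO, a log2 ratio of 1.14 (0.90 to 1.38). With Idoxuridine its interval overlapped that of Arntl, and with DMSO Arntl was well above it. Arntl2 lies on chromosome 6 (146796055 to 146833529, plus strand). Summed over Clock, Npas2, Arntl and Arntl2, the activators stood at 49.5 CPM (47.1 to 52.1) with Idoxuridine and 48.3 CPM (46.2 to 50.5) with DMSO, a log2 ratio of 0.04 (-0.06 to 0.13). The Per and Cry genes summed to 77.2 CPM (74.1 to 80.4) with Idoxuridine and 43.0 CPM (40.98 to 45.03) with DMSO, a log2 ratio of 0.85 (0.76 to 0.94). Cry1 carried most of that repressor sum in both libraries.

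In the auxiliary loops, Bhlhe40 had the highest ratio of the members with at least 200 UMIs. DEC1, its product, is a basic helix-loop-helix repressor also known to answer hypoxia and differentiation. It stood at 16.6 CPM (15.2 to 18.2, 507 UMIs) with Idoxuridine and 6.35 CPM (5.60 to 7.17, 259 UMIs) with DMSO, 2.62-fold higher (log2 ratio 1.39, 1.17 to 1.61). Beside it, a list of 18 hypoxia genes summed to 2541 CPM with Idoxuridine and 2312 CPM with DMSO. Of its 15 genes past 200 UMIs, 6 were higher and 1 was lower, where 18.8% of all genes were higher and 4.2% lower. In other lists counted the same way, 11 of 23 p53 target genes were higher and 1 was lower. Of 11 immediate early genes, 7 were higher and 1 was lower. Across cells, the Pearson r of Bhlhe40 with the summed hypoxia list was 0.0318 with Idoxuridine and -0.0052 with DMSO. It was -0.0388 with Idoxuridine and 0.0051 with DMSO for p53 target genes. For immediate early genes it was 0.0177 with Idoxuridine and 0.0371 with DMSO. The part of hypoxia, or of the responses behind the other lists, in the Bhlhe40 level was not tested. Nr1d2, which encodes the repressor REV-ERB beta, stood at 6.11 CPM (5.26 to 7.05, 186 UMIs) with Idoxuridine and 3.23 CPM (2.71 to 3.83, 132 UMIs) with DMSO. It was 1.89-fold higher (log2 ratio 0.92, 0.59 to 1.25), and the intervals were apart. Csnk1e, the kinase, was the most abundant member in both libraries, at 71.8 CPM (68.9 to 74.9, 2188 UMIs) with Idoxuridine and 51.5 CPM (49.3 to 53.7, 2101 UMIs) with DMSO. By CPM its log2 ratio of 0.48 (0.39 to 0.57) lay just under the size of 0.5, with intervals apart, and Cry2 at 0.69 was the nearest member past it. Under TMM and median-of-ratios scaling the ratio of Csnk1e was further from that size, at 0.27 and 0.23. Bhlhe40 (chromosome 6, 108660629 to 108666925, plus strand) overlaps 0610040F04Rik and Csnk1e (chromosome 15, 79417856 to 79455566, minus strand) overlaps Gm16059, each on the other strand. Nr1d2 lies on chromosome 14 (18204054 to 18239127, minus strand).

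Each molecule is counted from its 3′ end, so CPM values of different genes can be set side by side without a length correction. With Idoxuridine the order of levels was Csnk1e, Cry1, Clock, Bhlhe40, Cry2, Arntl, Arntl2, Nr1d2, Per1 and Per2, and from Bhlhe40 to Arntl2 each neighbour overlapped the next. With DMSO the order was Csnk1e, Cry1, Clock, Arntl, Cry2, Bhlhe40, Arntl2, Per1, Nr1d2 and Per2. There the neighbours Cry1 and Clock, Bhlhe40 and Arntl2, and Per1 and Nr1d2 overlapped. Cry1 and Clock, which overlapped with DMSO, were apart with Idoxuridine, where Cry1 was higher. Arntl stood above Cry2 and Bhlhe40 with DMSO, with intervals apart, and was below both with Idoxuridine, where neighbouring intervals overlapped.

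At the level of single cells, more Idoxuridine cells carried a transcript of most members. To compare shares, every cell was brought to 23500 UMIs, called the fixed depth below, by the exact expectation of drawing UMIs without replacement, which left 648 Idoxuridine cells and 764 DMSO cells and set aside 94 shallower Idoxuridine cells (12.7%) and 47 shallower DMSO cells (5.80%). A UMI of Cry1 was then expected in 67.4% of Idoxuridine cells and 48.5% of DMSO cells (unthinned 79.5% with Idoxuridine and 71.6% with DMSO), and a UMI of Bhlhe40 in 30.8% of Idoxuridine cells and 13.9% of DMSO cells (unthinned 44.3% with Idoxuridine and 24.8% with DMSO). Of the 9 members past 200 UMIs, 7 had a higher share with Idoxuridine at the fixed depth, Per1 by little, where 55.2% of all genes past 200 UMIs did. Without thinning 6 of the 9 did, where 27.7% of all genes did, and Csnk1e among the 6 was nearly level at 85.7% in both libraries. Cry2 was expected in 29.3% of Idoxuridine cells and 19.5% of DMSO cells, and Arntl2 in 23.8% of Idoxuridine cells and 13.0% of DMSO cells. Nr1d2 was expected in 12.5% of Idoxuridine cells and 7.13% of DMSO cells, and Csnk1e in 75.6% of Idoxuridine cells and 67.4% of DMSO cells. These are the members whose levels were also higher.

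The activating pair was again different. Clock was expected in 39.8% of Idoxuridine cells and 46.3% of DMSO cells (unthinned 55.7% with Idoxuridine and 68.8% with DMSO), and Arntl in 27.8% of Idoxuridine cells and 32.5% of DMSO cells (unthinned 42.5% with Idoxuridine and 53.4% with DMSO). Per1 was expected in 7.79% of Idoxuridine cells and 7.68% of DMSO cells, and unthinned its share was 13.3% with Idoxuridine and 15.4% with DMSO, so no order is read from it. Without thinning, Cry2 was found in 43.9% of Idoxuridine cells and 36.4% of DMSO cells, and Arntl2 in 35.7% of Idoxuridine cells and 23.7% of DMSO cells. Nr1d2 was found in 21.02% of Idoxuridine cells and 14.5% of DMSO cells, and Csnk1e in 85.7% of the cells of either library. Cells with 4 or more UMIs at the fixed depth were 6.94% with Idoxuridine and 1.03% with DMSO for Cry1, and 13.2% with Idoxuridine and 4.44% with DMSO for Csnk1e. In 1 seeded draw to that depth, an Idoxuridine cell showed a mean of 3.14 of the 10 genes and a DMSO cell a mean of 2.57, with a median of 3 in both. No cell showed more than 7, and 8 Idoxuridine cells (1.23%) and 27 DMSO cells (3.53%) showed none.

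**Figure D2:**
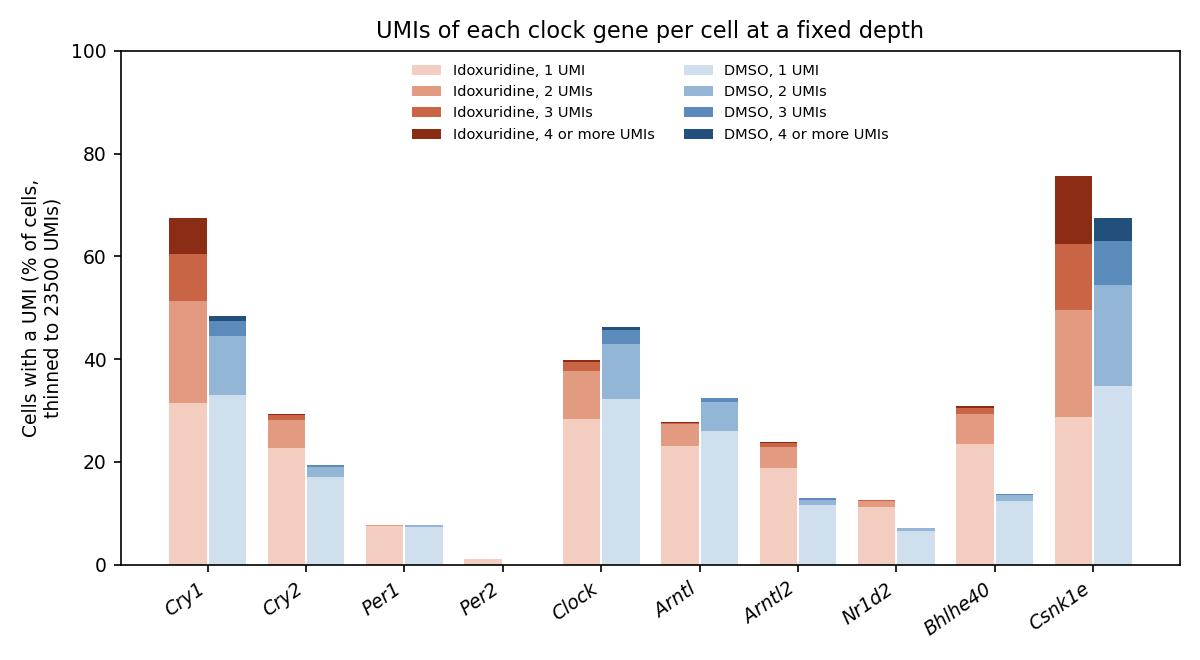
Percent of cells with each number of UMIs per cell for the clock genes at the fixed depth, Idoxuridine library beside DMSO library. Cells with 4 or more UMIs of Csnk1e are 13.2% with Idoxuridine and 4.44% with DMSO, while Per1 and Per2 are absent from most cells of both libraries.

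The higher levels of Cry1, Cry2, Arntl2, Bhlhe40 and Csnk1e were present in both large cell cycle classes, with separate intervals in each. Of the cells at the fixed depth, 316 Idoxuridine cells (48.8%) and 433 DMSO cells (56.7%) were called S phase, and 325 Idoxuridine cells (50.2%) and 330 DMSO cells (43.2%) were called G2/M, which left 7 Idoxuridine cells and 1 DMSO cell in G1. Free RNA could also enter these calls, and its part was not tested. Bhlhe40 stood at 14.7 CPM with Idoxuridine and 6.16 CPM with DMSO in S phase cells, and at 18.2 CPM with Idoxuridine and 6.08 CPM with DMSO in G2/M cells. Log2 ratios in S phase and then in G2/M cells were 0.87 and 1.04 for Cry1, 0.79 and 0.52 for Cry2, 0.88 and 1.39 for Arntl2, 1.09 and 0.64 for Nr1d2, 1.26 and 1.58 for Bhlhe40, and 0.55 and 0.43 for Csnk1e. The intervals of Nr1d2 were apart in S phase (0.60 to 1.59) and overlapped in G2/M (0.17 to 1.12). Clock had -0.12 (-0.32 to 0.09) in S phase and -0.39 (-0.60 to -0.18) in G2/M. Arntl had -0.25 (-0.52 to 0.02) in S phase and -0.26 (-0.51 to -0.0019) in G2/M, where its CPM intervals overlapped. Per1 had 0.03 (-0.52 to 0.57) in S phase and 0.24 (-0.32 to 0.80) in G2/M. No direction is read where the interval of the ratio holds 0, and the differences between the classes were not tested.

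The share of nuclear-retained RNA, which differed between the libraries as given above, moved with several members, though not always in both libraries. Values of Arntl2, Bhlhe40, Csnk1e, Arntl and Cry1 follow. Groups of low, middle and high share were set within each library. Their median shares were 0.299%, 0.507% and 0.865% with Idoxuridine and 0.193%, 0.319% and 0.486% with DMSO. In these groups Arntl2 stood at 9.25, 14.98 and 15.50 CPM with Idoxuridine and at 4.75, 5.63 and 7.84 CPM with DMSO. Bhlhe40 was flat with Idoxuridine, at 16.4, 17.2 and 16.2 CPM, and rose with the share with DMSO, at 5.02, 6.37 and 8.11 CPM. In each group both genes were higher with Idoxuridine, but groups of the same name differ in share between the libraries. The middle Idoxuridine group and the high DMSO group had similar median shares, as did the low Idoxuridine and middle DMSO groups. Both genes were higher with Idoxuridine in these comparisons too. In the same groups of cells Csnk1e stood at 67.2, 69.2 and 81.6 CPM with Idoxuridine and at 47.2, 52.2 and 56.2 CPM with DMSO. Arntl stood at 12.9, 13.5 and 16.2 CPM with Idoxuridine and at 14.5, 15.6 and 19.4 CPM with DMSO. Cry1 was flat with Idoxuridine, at 54.7, 54.0 and 54.8 CPM, and stood at 27.2, 26.9 and 32.5 CPM with DMSO. The share lay between 0.253% and 0.593% in 386 Idoxuridine cells and 472 DMSO cells. Its median in these cells still differed, at 0.420% with Idoxuridine and 0.366% with DMSO. There 7 members reached 200 UMIs, and Nr1d2 and Per1 no longer did. Of these 7, 4 were higher by at least 0.5 with separate intervals, where 14.3% of 9397 genes were in the same cells. The median log2 ratio there was 0.80 over the 7 members and 0.05 over all genes.

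The spread between cells was described by the Fano factor, which divides the variance of a gene's UMIs by their mean and equals 1 under counting noise alone. Only Cry1, Clock, Arntl and Csnk1e had a mean of at least 0.25 UMI per cell at the fixed depth in both libraries. Csnk1e had a Fano factor of 1.68 with Idoxuridine and 1.14 with DMSO, a log2 ratio of 0.56 that lay at the 97.9th percentile of 7316 genes. Its mean was 1.75 UMIs with Idoxuridine and 1.19 with DMSO. Cry1 had 1.38 with Idoxuridine and 1.13 with DMSO (92.0th percentile), at a mean of 1.31 UMIs with Idoxuridine and 0.696 with DMSO. A Fano factor depends on the mean as well as on variation between cells, and the part of the higher means in these ratios was not tested. The squared coefficient of variation after removal of the counting part was 0.391 with Idoxuridine and 0.117 with DMSO for Csnk1e, and 0.291 with Idoxuridine and 0.192 with DMSO for Cry1.

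Clock was near the counting limit in both libraries, and Arntl only with DMSO. Arntl had a Fano factor of 1.22 with Idoxuridine and 1.02 with DMSO, and Clock 1.08 with Idoxuridine and 1.05 with DMSO. All 4 genes were higher with Idoxuridine, but so were 79.2% of the 7316 genes, so the count of 4 says little about them. The median log2 ratio of the Fano factor was 0.27 over the 4 members and 0.08 over the 7316 genes. The Arntl value rested on 1 Idoxuridine cell: without it the Fano factor was 1.00 with Idoxuridine, and the log2 ratio was -0.03. The log2 level ratio of Arntl without that cell was -0.23 (-0.41 to -0.06).

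**Figure D3:**
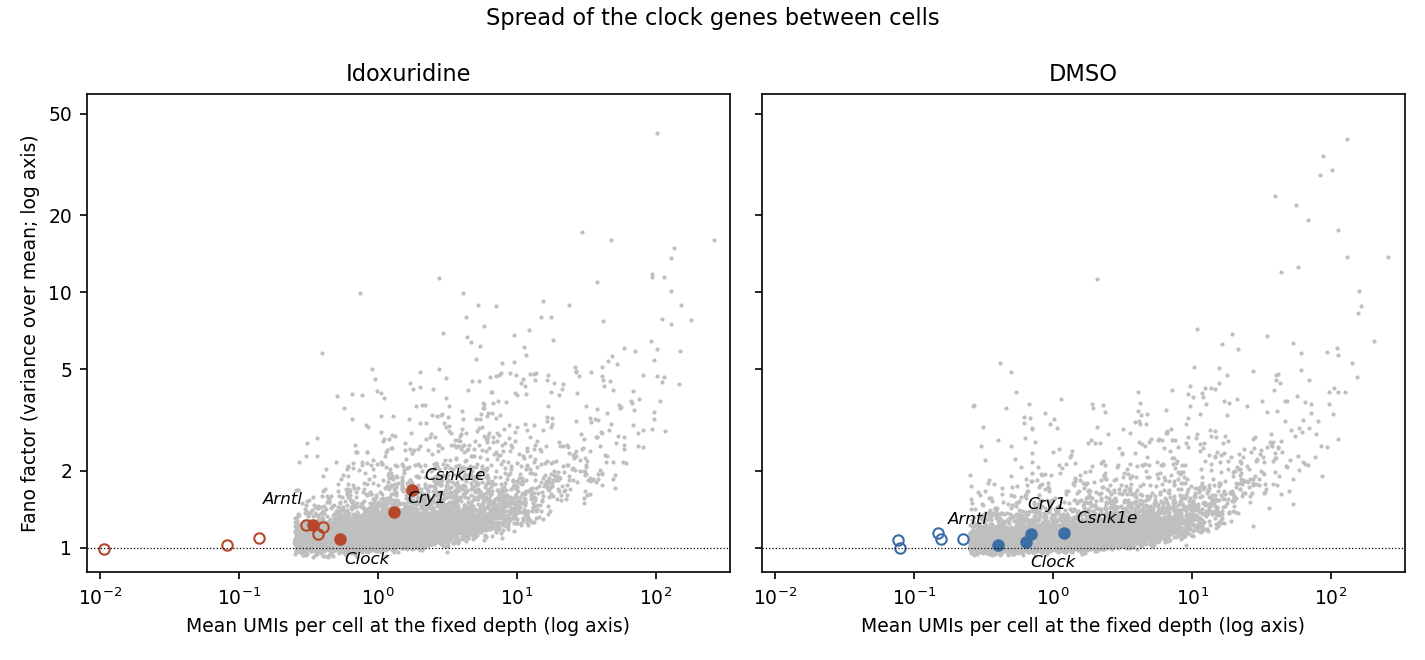
Fano factor (log axis) against mean UMIs per cell at the fixed depth (log axis) in the Idoxuridine library and the DMSO library; grey points are 7316 genes with a mean of at least 0.25 in both, filled circles the 4 named clock genes past that mean and open circles members below it. Csnk1e is at 1.68 with Idoxuridine and 1.14 with DMSO, and Clock is near 1 in both.

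A pair of Idoxuridine cells held far more Csnk1e than any other. They had 16 of 24085 and 13 of 26195 UMIs, or 15.6 and 11.7 per fixed depth, against 7.62 in the next Idoxuridine cell and 4.73 in the highest DMSO cell. Both also held high counts of Ckb, the brain-type creatine kinase, at 244 and 210 per fixed depth, against a median of 33.4 over Idoxuridine cells and a highest value of 94.98 in DMSO cells. Pou5f1, the pluripotency factor Oct4, was at 4.88 in the first and 45.8 in the second, where the Idoxuridine median was 37.4. The sum of the 10 embryonic stem cell markers, Pou5f1 among them, was above the Idoxuridine median of 111 in both, at 168 and 201. Without these 2 cells the Fano factor of Csnk1e was 1.46 with Idoxuridine, above 1.14 with DMSO, and its log2 level ratio was 0.46 (0.38 to 0.55). The single cell behind the Arntl value had 8 of 23960 UMIs, or 7.85 per fixed depth, against 2.15 in the next Idoxuridine cell and 2.92 in the highest DMSO cell. In that cell Pou5f1 was 24.5 and the sum of the 10 markers was 59.8, below the Idoxuridine medians of 37.4 and 111. The cell held 59.8 of Mest, an imprinted gene with a median of 4.06 over Idoxuridine cells and 50.1 in the next highest of them. It held 20.6 of Peg10, another imprinted gene, with a median of 1.12 and a highest value of 31.8 over Idoxuridine cells. These cells, and the genes named with them, were singled out after their values were seen.

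**Figure D4:**
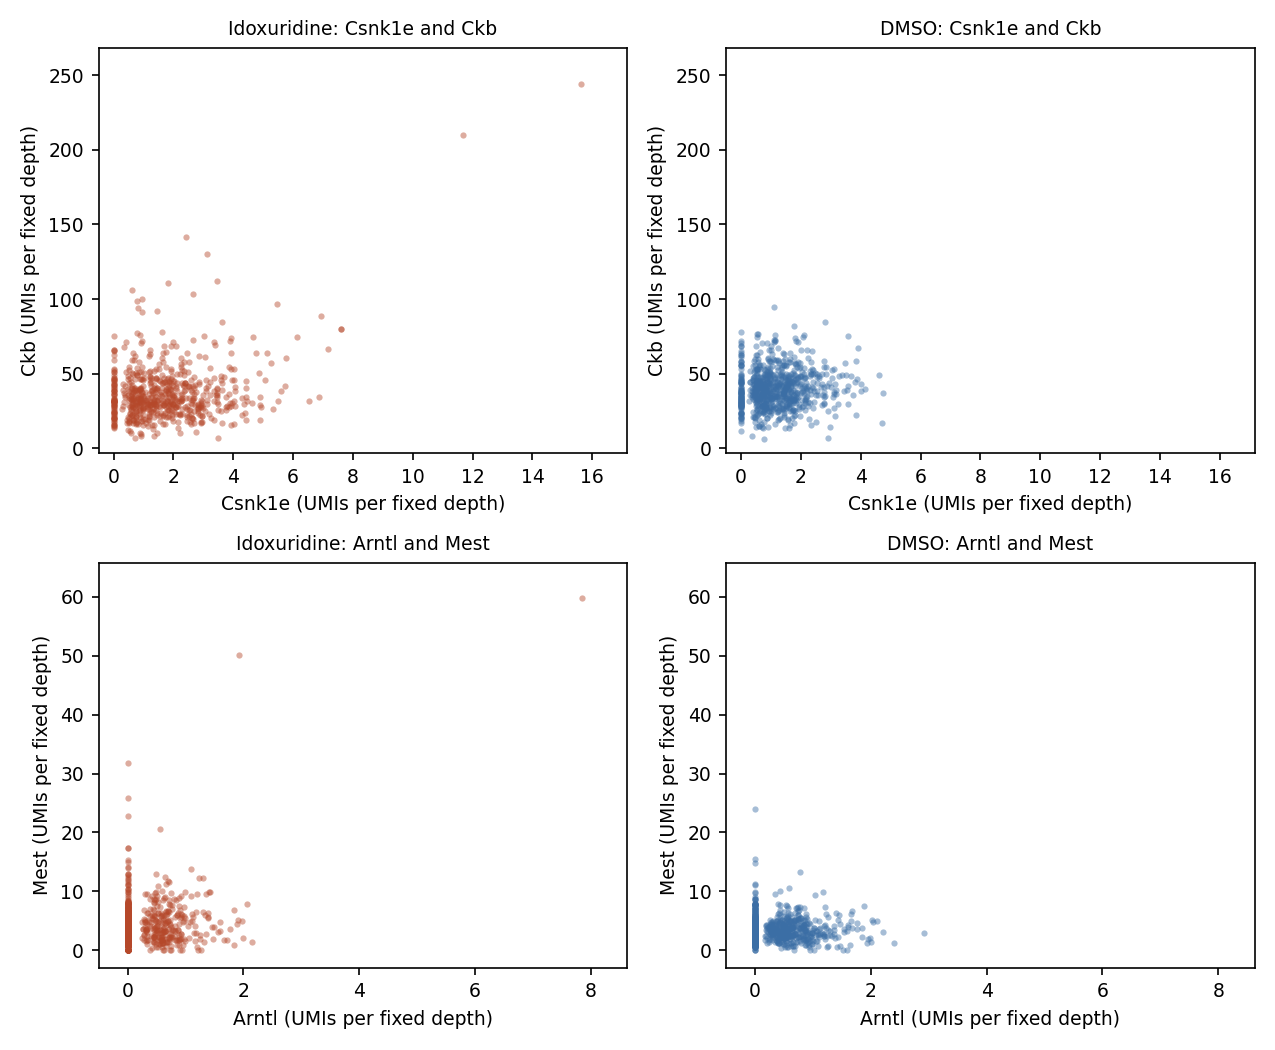
UMIs per cell scaled to the fixed depth for Csnk1e against Ckb and for Arntl against Mest, each point 1 cell, Idoxuridine and DMSO cells in their own colours. By Csnk1e, 2 Idoxuridine cells lie apart from the others, with Ckb values of 244 and 210. By Arntl, 1 Idoxuridine cell lies apart, with a Mest value of 59.8, where another Idoxuridine cell has 50.1.

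No co-variation between members from cell to cell was detectable at this depth. At the fixed depth, the 6 pairs among Cry1, Clock, Arntl and Csnk1e had a median Pearson r of 0.0015 with Idoxuridine, with a range of -0.0286 to 0.0533, and of 0.0098 with DMSO, with a range of -0.0041 to 0.0277. Over all 45 pairs of the 10 members with Idoxuridine r lay between -0.0674 and 0.0848, and over the 36 pairs with DMSO, where Per2 has no value, between -0.0466 and 0.0563. For comparison, 98% of the 26758270 pairs of 7316 genes lay between -0.0843 and 0.0909 with Idoxuridine and between -0.0840 and 0.0890 with DMSO. Within the Idoxuridine cells called S phase (316), the highest of the 6 pairs was Clock with Arntl at 0.123, and in G2/M cells (325) it was Cry1 with Csnk1e at 0.0321. The cells of a library share its preparation and the fixed depth. In counts this sparse neither a low nor a weak r is a finding.

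**Figure D5:**
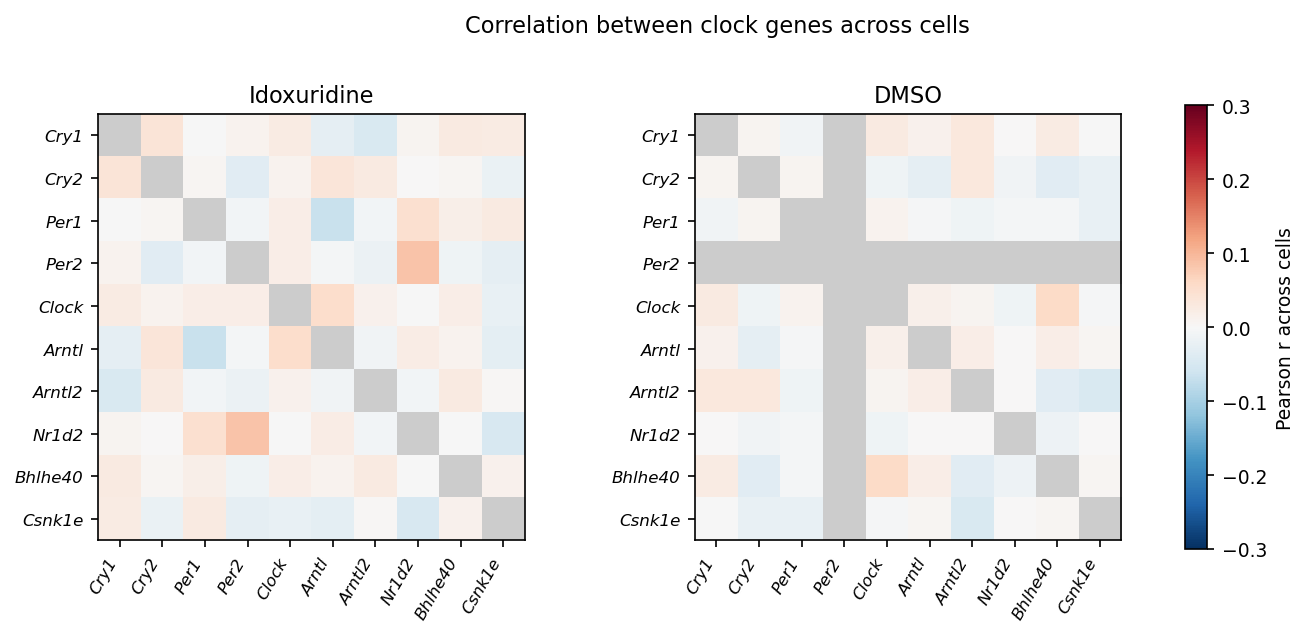
Pearson r across cells between every pair of the 10 clock genes at the fixed depth, 648 cells of the Idoxuridine library and 764 cells of the DMSO library; grey cells have no value. Colours run from -0.3 to 0.3, and no pair exceeds 0.0848 with Idoxuridine or 0.0563 with DMSO.

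Partners of the loop were found together about as often as their separate shares give. In the seeded draw, Clock with Arntl or Arntl2 was found in 17.3% (14.5 to 20.4%, exact binomial) of Idoxuridine cells, where the product of the shares is 17.7%, and in 19.8% (17.0 to 22.8%) of DMSO cells, where it is 19.4%. Cry1 with Cry2 was found in 19.0% of Idoxuridine cells (product 19.4%) and 9.82% of DMSO cells (product 9.07%). Both cryptochromes were thus seen in the same cell more often with Idoxuridine, and the products of their shares differed in the same way. Arntl with Arntl2 was found in 7.41% of Idoxuridine cells (product 6.87%) and 4.84% of DMSO cells (product 4.34%).

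No gene met the likeness rule for Cry1, Clock, Arntl or Csnk1e, which asked for an r of at least 0.15 in both libraries among 7312 other genes. With Idoxuridine alone, 44 genes reached 0.15 with Csnk1e, 9 with Arntl, 1 with Cry1 (Ptges3, 0.156) and 0 with Clock. With DMSO, 1 gene reached it with Csnk1e (Slc25a4, 0.154) and none with the others. The highest values were those of Ckb with Csnk1e, 0.310 with Idoxuridine and 0.0503 with DMSO, and of Mest with Arntl, 0.246 with Idoxuridine and -0.0411 with DMSO. Genes named here were singled out after their values were seen. Without the 2 cells high in Csnk1e the r of Ckb with Idoxuridine was 0.136, and without the cell high in Arntl that of Mest was 0.038. Without those 2 cells the r of Csnk1e with Neat1 went from 0.265 to 0.053, and with Chga from 0.261 to 0.033. With Ckmt1 it went from 0.263 to 0.136, and with Rundc3a from 0.254 to 0.171. The counts of 44 and 9 genes include the cells high in Csnk1e and Arntl and were not repeated without them. Against summed lists, the highest value with Idoxuridine was 0.171 for Csnk1e with nuclear-retained RNAs, which was 0.122 with DMSO. Csnk1e also had 0.151 with Idoxuridine and 0.0191 with DMSO for immediate early genes, and 0.123 with Idoxuridine and -0.0100 with DMSO for trophectoderm markers. The Idoxuridine values of Csnk1e with these lists include the 2 cells high in Csnk1e and were not repeated without them. The highest value with DMSO was 0.184 for Arntl2 with p53 target genes, which was 0.130 with Idoxuridine. The lowest values were -0.116 with Idoxuridine, for Bhlhe40 with embryonic stem cell markers, and -0.105 with DMSO, for Arntl2 with G2/M genes. These weak values are given as descriptions.

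Beyond the 10 members, a list of 36 other clock genes was counted the same way. Of the 28 with at least 200 UMIs, 5 were higher with Idoxuridine and none was lower, a share of 17.9% close to the 18.8% of all genes, with a median log2 ratio of 0.18. Usp2, a deubiquitinase that acts on clock proteins, stood at 10.0 CPM with Idoxuridine and 2.23 CPM with DMSO (log2 ratio 2.17, 1.83 to 2.52). Id2, an inhibitor of basic helix-loop-helix factors, stood at 6.80 CPM with Idoxuridine and 1.74 CPM with DMSO (1.97, 1.57 to 2.38). Tef, a D-box activator, stood at 13.9 CPM with Idoxuridine and 7.96 CPM with DMSO (0.80, 0.59 to 1.01), and Nfil3, a D-box repressor, at 7.16 CPM with Idoxuridine and 4.75 CPM with DMSO (0.59, 0.31 to 0.88). Btrc, part of a ligase that marks PER proteins for degradation, stood at 34.2 CPM with Idoxuridine and 23.2 CPM with DMSO (0.56, 0.43 to 0.69).

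Paralogues of the members did not all follow them. Nr1d1, the other REV-ERB gene, stood at 3.71 CPM with Idoxuridine and 3.90 CPM with DMSO, a log2 ratio of -0.07 (-0.43 to 0.29), where Nr1d2 had 0.92 (0.59 to 1.25), and the intervals of the ratios did not overlap. Nr1d1 overlaps Thra on the other strand. Csnk1d, the sister kinase, stood at 69.8 CPM with Idoxuridine and 59.3 CPM with DMSO, a log2 ratio of 0.24 (0.15 to 0.32) against 0.48 (0.39 to 0.57) for Csnk1e. Per3, with 80 UMIs with Idoxuridine and 47 UMIs with DMSO, stood at 2.63 CPM with Idoxuridine and 1.15 CPM with DMSO, a log2 ratio of 1.19 (0.65 to 1.74), and overlaps Camta1 on its own strand. Npas2, a relative of Clock, had 9 UMIs with Idoxuridine and 3 with DMSO. Of the remaining genes with at least 50 UMIs, the largest log2 ratios in size were 0.48 for Csnk2a1, -0.47 for Wdr5 and 0.44 for Ciart. The REV-ERB genes summed to 9.82 CPM with Idoxuridine and 7.13 CPM with DMSO (log2 ratio 0.46, 0.22 to 0.70), and the D-box activators Dbp, Tef and Hlf to 25.3 CPM with Idoxuridine and 21.8 CPM with DMSO (0.21, 0.07 to 0.36).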

How the data were processed

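Per the labels, single cells were captured with 10x Genomics 3′ V2 chemistry. Per the submitters' processing notes, the tools were Cell Ranger 2 and Seurat and the build mm10; the strand setting and annotation release are not given in the sources used here. The deposited matrices hold raw UMI counts. All 1553 deposited barcodes were taken as cells, and no doublet caller was run. Counts were summed per library and scaled to CPM. CPM has exact Poisson intervals, ratios exact conditional binomial intervals and shares exact binomial intervals, all at 95%. Spread and correlations used exact moments of thinning to 23500 UMIs per cell, and phases used scanpy 1.11.5 on 1 seeded thinning. TMM factors came from edgeR 4.0.16. The calculations were tested on simulated data. Coordinates are GENCODE M21 on GRCm38. All 10 members were named, with other clock genes past 0.5 log2 and up to 4 of the next largest. Members and lists were chosen with earlier results of these data known. Alternatives were other scalings, filters, cell subsets and depths.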

Additional observations from a re-analysis of the deposited data

How the results depend on the processing

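No paired analysis was possible because each treatment has 1 library and the labels give no replicate numbers. The 5 members called higher were 4 to 6, and none was called lower, under every alternative run. Under TMM and then median-of-ratios scaling, the members' median log2 ratio was 0.48 and 0.44, the activator sum -0.17 and -0.22, and the repressor sum 0.63 and 0.59. Clock was then at -0.44 and -0.48, Arntl at -0.42 and -0.46, and Csnk1e at 0.27 and 0.23. Of 28 other clock genes, 3 and 3 were called higher and 1 and 3 lower, where the split over all genes is given above. The sum of Dbp, Tef and Hlf turned to -0.0375 under the median of ratios. In cells with a nuclear RNA share between 0.253% and 0.593%, 3 of 25 other clock genes were higher and 1 lower. Of all 9397 genes there, 1343 were higher and 474 lower. In G2/M cells 3 of 24 were higher and 1 lower, where 1447 of 9056 genes were higher and 477 lower. In S phase cells 1 of 22 was higher, where 1228 of 8934 genes were. At a size of 0.25, 12 of 28 were higher and 3 lower, where 3223 of 10380 genes were higher and 1394 lower. With no UMI minimum 8 of 35 were higher, where 4189 of 19293 genes were. In the subsets by nuclear RNA and phase, 7 members reach 200 UMIs, where 9 do in all cells. The members' median log2 Fano ratio was 0.13 unthinned and 0.16 without the 1% of cells with most of the gene. The log2 Fano ratio of Csnk1e, 0.56, was 0.25 unthinned, 0.32 without the top 1% of cells, 0.36 at 15000 UMIs and 0.36 without 2 cells. The Fano ratio turned to -0.0921 for Clock unthinned, to -0.0143 for Arntl without the top 1% of cells, and to -0.0317 without its 1 highest cell. The cause of these changes was not tested beyond the cells named. Median r between pairs moved by less than 0.05 throughout, and the highest pair reached 0.123 in Idoxuridine S phase cells, against 0.0533 in all. The subset by phase and the single cells left out were chosen after seeing the data. G1 cells alone were not run, at 7 Idoxuridine and 1 DMSO cells. Depth limits Per1, Per2 and Nr1d2 most.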

Other observations

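Among clock genes with few UMIs, Bhlhe41, the paralogue of Bhlhe40, had 10 UMIs with Idoxuridine and 1 UMI with DMSO, a log2 ratio of 3.74 (0.93 to 9.18, counting error only), and was singled out after its values were seen. Ppargc1a, a transcriptional coactivator, had no UMI in either library.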
